A study of Mus musculus with 24 samples.

Results

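Dendritic cells are the antigen-presenting leukocytes of the lung, and 9 genes by which they are commonly recognised were followed in whole mouse lung after birth: the lectin receptors Cd209a, Cd209d, Clec9a and Clec10a, the growth factor receptor Flt3, the integrin Itgax, and the transcription factors Irf8, Batf3 and Zbtb46. They were listed by symbol and found through the RefSeq transcript that each array probe names. Of the 9 genes, 8 had a probe and all 8 were among the 15895 genes tested, out of 19752 gene symbols on the array. Zbtb46 was not matched to a probe and was not analysed here.

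The samples were whole lungs of healthy C57BL/6 mice at postnatal days 1, 4, 7 and 14 (n = 5 arrays each) and 42 (n = 4). The labels name no transgene, deletion or treatment in any group, and each of the 24 samples was read on 1 single-colour array. The labels call the samples biological replicates without saying that each was a separate animal, so the p-values measure the spread between these samples. In whole lung, more cells of a type and more RNA per cell cannot be told apart.

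Conventional dendritic cells arise from bone marrow precursors that depend on FLT3 and its ligand. The cDC1 lineage needs IRF8 and BATF3, carries CLEC9A, a receptor for exposed actin of dead cells, and cross-presents antigen to CD8 T cells. The cDC2 lineage depends on IRF4 and presents antigen mainly to CD4 T cells, and in the mouse CD209A and CLEC10A mark cDC2 and related monocyte-derived cells. None of the genes is exclusive to dendritic cells: Itgax (CD11c) is also high on alveolar macrophages, and Irf8 is also expressed in B cells, monocytes and plasmacytoid dendritic cells.

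The promoters of 4 genes are shown because their age profiles span the range seen here: Cd209a and Cd209d, a pair of CD209 lectins with the largest rises at day 14, Itgax, and Batf3, whose difference between day 42 and day 1 was the smallest of the 8. Each is the RefSeq window from 250 bases before to 50 after the transcription start in GRCm38.p6, written 5′ to 3′ on the gene's strand. Capitals mark a match, on either strand, to the PU.1 core GAGGAA or the AP-1 motif TGANTCA.
Cd209a, chr8:3748935-3749234, minus strand: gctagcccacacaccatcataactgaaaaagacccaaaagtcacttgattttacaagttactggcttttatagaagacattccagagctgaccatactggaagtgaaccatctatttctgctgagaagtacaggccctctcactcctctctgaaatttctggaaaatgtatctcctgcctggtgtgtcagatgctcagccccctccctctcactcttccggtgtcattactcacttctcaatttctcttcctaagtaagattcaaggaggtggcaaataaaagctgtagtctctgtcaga
Cd209d, chr8:3878450-3878749, minus strand: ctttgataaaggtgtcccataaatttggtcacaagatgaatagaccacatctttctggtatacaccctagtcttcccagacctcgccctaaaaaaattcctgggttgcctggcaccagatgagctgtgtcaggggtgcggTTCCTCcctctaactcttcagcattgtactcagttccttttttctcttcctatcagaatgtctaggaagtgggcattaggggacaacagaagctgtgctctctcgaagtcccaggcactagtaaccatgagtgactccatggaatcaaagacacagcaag
Itgax, chr7:128129300-128129599, plus strand: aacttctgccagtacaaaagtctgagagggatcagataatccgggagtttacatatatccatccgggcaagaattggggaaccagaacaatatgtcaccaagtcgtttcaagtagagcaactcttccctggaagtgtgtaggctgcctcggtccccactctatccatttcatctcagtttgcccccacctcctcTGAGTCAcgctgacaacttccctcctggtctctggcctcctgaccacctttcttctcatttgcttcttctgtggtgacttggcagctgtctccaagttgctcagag
Batf3, chr1:191098164-191098463, plus strand: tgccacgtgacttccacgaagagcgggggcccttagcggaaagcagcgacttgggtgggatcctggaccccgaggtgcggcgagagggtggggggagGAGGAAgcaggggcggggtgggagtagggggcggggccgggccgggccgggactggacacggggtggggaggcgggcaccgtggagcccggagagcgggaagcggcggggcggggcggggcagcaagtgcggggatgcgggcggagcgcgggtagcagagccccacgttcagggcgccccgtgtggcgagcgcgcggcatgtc

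The GAGGAA core was found in Cd209d, on the minus strand of the window starting at position -110 from the transcription start, and in Batf3 at -153. TGANTCA was found in Itgax at -56 and in the Zbtb46 window, not printed, at -61. Of all 32851 mouse promoters of the same length, 28.3% hold GAGGAA and 7.81% hold TGANTCA, and no motif match here overlaps another. The core of the interferon-stimulated response element, present in 3.44% of promoters, had no match in these windows or in those of Flt3, Clec9a, Irf8 (with 2 windows) and Zbtb46. No window of Clec10a was searched for any motif. Cd209a and Cd209d share a run of 12 bases, tttctcttccta, against runs of 6 to 11 bases in the other pairs compared. Neither Clec10a nor Irf8 was among those pairs. These matches describe letters in the windows and were not set against binding data.

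All levels below are log2 of the processed signal minus the 75th percentile of the same array, so that 0 is the level of a fairly bright probe, and values of different genes come from different probes and were not compared as levels. A difference between ages is a difference of such log2 levels ± SE from 1 limma fit over all arrays, with p-values adjusted by Benjamini and Hochberg over all genes tested. The p of 0.05 after adjustment is the threshold wherever a gene is said to have risen.

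Signal strength differed between arrays. The 75th percentile of the processed signal was 476.1 to 979.3 intensity units on 5 arrays, against 995.5 to 1652.7 on the other 19. Those 5 were replicates 4 and 5 of day 1, replicates 1 and 3 of day 4, and replicate 4 of day 42. The share of spots well above background was 50.4% to 56% on those 5 and 57% to 79.7% on the others. These arrays had been set apart by earlier results of the same data, and each count of the 8 genes is given with and without them. The lowest signal of a probe well above background was -5.33 to -4.43 on the 5 arrays and -6.04 to -5.25 on the other 19. Each of the 3 slides carried arrays of all 5 ages. Slide 3 held 1 array of day 1 and 1 of day 42, and the latter is replicate 4, set apart.

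**Figure D1:**
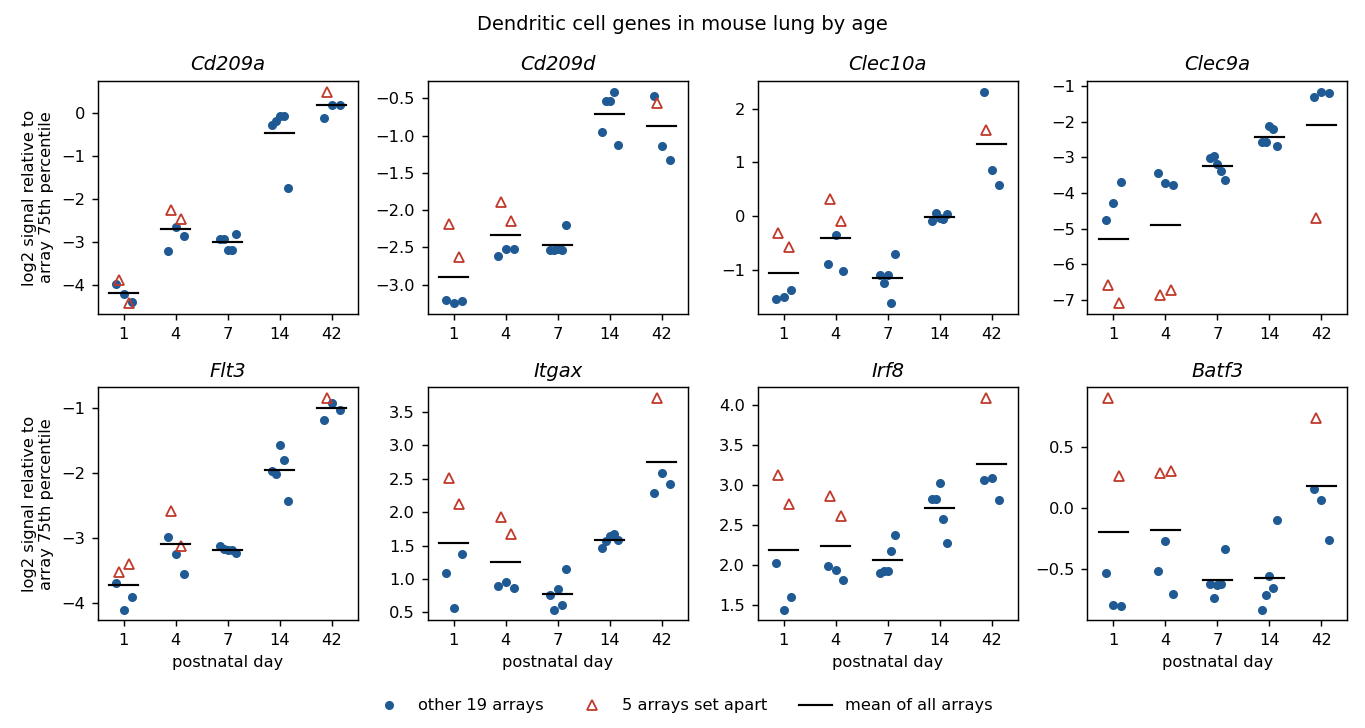
Level of each of the 8 dendritic cell genes (log2 signal relative to the array's 75th percentile, vertical axis, own scale per panel) at postnatal days 1, 4, 7, 14 and 42. Points are single arrays, open triangles are the 5 arrays set apart, and bars are means of all arrays at an age. Cd209a, Cd209d and Flt3 step up between days 7 and 14, whereas Batf3 stays between -0.83 and 0.9 over all arrays.

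Between the first and the last age, 7 of the 8 dendritic cell genes rose. At day 42 against day 1, Cd209a, Cd209d, Flt3, Itgax, Clec9a, Clec10a and Irf8 were higher, by 2.11-fold for Irf8 to 20.8-fold for Cd209a, and Batf3 did not pass the test. Over all genes tested, 26.7% passed in that comparison and 13% were higher. Without the 5 arrays all 8 genes were higher, against a background of 46.6% called and 22.6% higher. The median difference of the 8 genes was 2.21 (2.49 without the 5 arrays), beside -0.06 (-0.03) over all genes tested. All values of the day 42 group lay above all those of the day 1 group for 4 of the 8 genes, and for 8 without the 5 arrays. Over all genes 16.5% had groups that did not overlap, and 57.2% without the 5 arrays. By an F-test over the 5 ages, 7 of the 8 genes passed with all arrays (31.8% of all genes) and 8 without the 5 (53.9%).

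The interval from day 7 to day 14 carried 4 of those rises, in Cd209a, Cd209d, Flt3 and Clec10a, with 11.6% of all genes called and 6.04% called higher. Without the 5 arrays, none of which is of day 7 or 14, 7 of the 8 genes passed, all but Batf3, against 38.5% called and 20.5% higher over all genes. The differences themselves are the same in both fits, and the standard errors are smaller in the second. The median of the 8 was 0.98, beside 0.02 over all genes. In 6 of the 8 genes day 14 and day 7 did not overlap, beside 16.7% of all genes.

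From day 14 to day 42, Flt3 and Clec10a rose further, with 3.69% of all genes called and 2.18% called higher. Itgax, Batf3 and Clec9a joined them without the 5 arrays, against 13.6% called and 6.73% higher. From day 1 to day 4, Cd209a alone passed, where 0.0629% of all genes (10 genes) were called and 0.044% were higher. None of the 8 passed there without the 5 arrays in the limma fit (0.0818% called, 0.0755% higher). With all arrays, 4 of the 8 had an unadjusted p under 0.05 in that fit, beside 817 of the 15895 genes tested. From day 4 to day 7, 0 of the 8 genes passed in the limma fit, with 0.00629% of all genes (1 gene) called, 0.0503% without the 5 arrays, and 1348 genes at an unadjusted p under 0.05, Clec9a and Clec10a among them. The groups did not overlap for 1 of the 8 genes at day 4 against day 1, for 0 at day 7 against day 4 and for 3 at day 42 against day 14, beside 1.62%, 3.4% and 11.5% of all genes. None of the 8 genes was called lower in any of these comparisons with or without the 5 arrays.

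**Figure D2:**
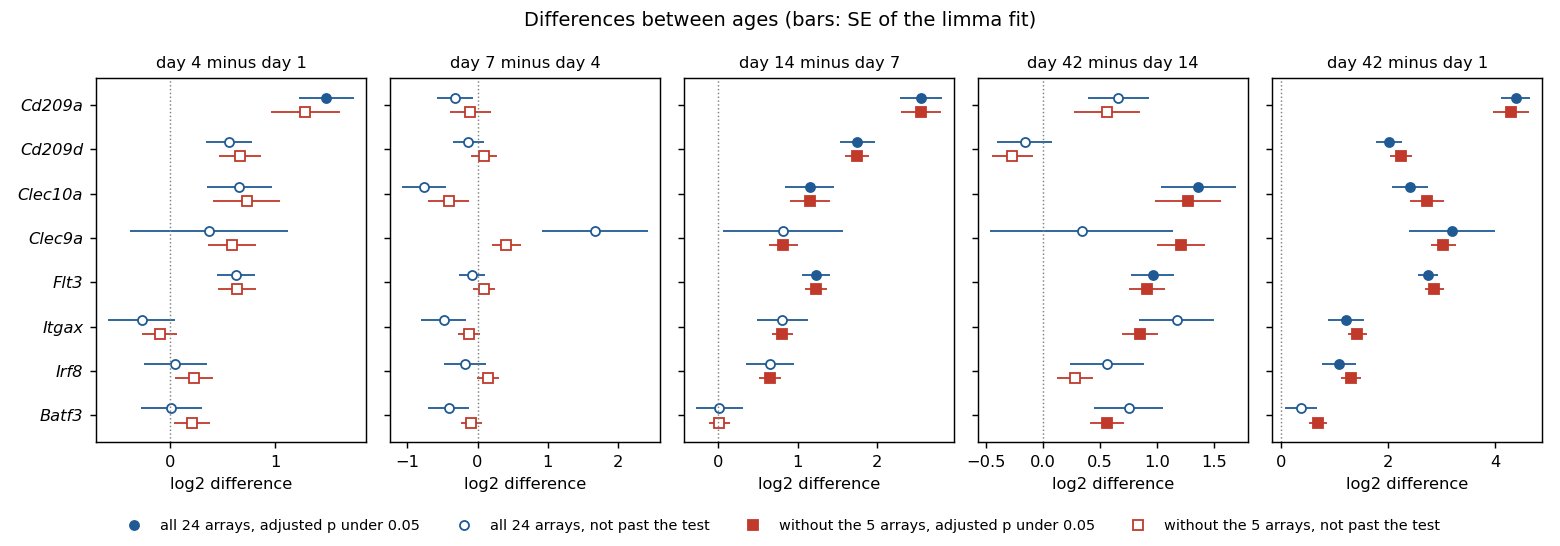
Difference in log2 level between ages (horizontal axis, its own scale per panel) for each gene, with all 24 arrays (circles) and without the 5 arrays (squares). Bars are SE of the limma fit and filled symbols passed an adjusted p of 0.05. At day 14 minus day 7 the 4 filled circles become 7 filled squares, and Clec9a has the widest bars with all arrays (SE 0.75 to 0.8).

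Flt3 encodes the receptor tyrosine kinase through which FLT3 ligand drives dendritic cell development. Its level was -3.69, -4.11, -3.92, -3.52 and -3.41 at day 1, in the order of replicates. It was -2.58, -2.98, -3.12, -3.25 and -3.56 at day 4, and -3.13, -3.17, -3.19, -3.18 and -3.23 at day 7. All of these lay below the -1.96, -2.01, -1.56, -1.80 and -2.43 of day 14, which in turn lay below the -1.18, -0.92, -1.03 and -0.84 of day 42. By mean the ages order as 1, 7, 4, 14 and 42, and day 4 overlaps both day 7 and day 1.

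Flt3 rose by 1.23 ± 0.18 at day 14 against day 7 (2.34-fold, adjusted p = 9.67e-05) and by a further 0.96 ± 0.19 at day 42 against day 14 (1.94-fold, adjusted p = 0.00514). Over the whole course it was 6.67-fold higher at day 42 than at day 1 (2.74 ± 0.19, adjusted p = 1.61e-09). The last difference was 2.86 without the 5 arrays (adjusted p = 3.54e-08), and within slides 1, 2 and 3 it was 2.42, 2.78 and 3.09. It was smaller with the normexp background (1.79, adjusted p = 3.45e-07) and with the mean of both Flt3 probes (1.62, adjusted p = 0.000208). At day 4 the difference from day 1 was 0.63 ± 0.18 (adjusted p = 0.327), and it passed without those 5 and day 14 replicate 5 (0.64, adjusted p = 0.0409). A second Flt3 probe was well above background on 1 array of day 14 and 1 of day 1 and was not tested. Averaging both probes took the difference between day 42 and day 14 to 0.3 (adjusted p = 0.679), and a fit of those 2 ages alone gave an adjusted p of 0.0529.

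Its ligand moved the same way. Flt3l, the growth factor that FLT3 binds, was 1.53 ± 0.25 higher at day 14 than at day 7 (adjusted p = 0.000267) and 1.94 ± 0.27 higher at day 42 than at day 1 (3.85-fold, adjusted p = 8.17e-06). Of 9 growth factor and receptor genes that act on dendritic cells, 5 were higher at day 42 than at day 1 and 0 lower, and 7 were higher without the 5 arrays. Ltb, a membrane lymphotoxin subunit (1.83 ± 0.4, adjusted p = 0.00112), and Lta, the soluble lymphotoxin (1.7 ± 0.37, adjusted p = 0.00136), were the other large ones. The list's median difference was 0.69, beside -0.06 over all genes.

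Irf8 encodes a transcription factor needed for cDC1, plasmacytoid dendritic cells and monocytes. At day 1 it read 2.02, 1.44, 1.60, 3.13 and 2.77, and at day 4 2.86, 1.99, 2.61, 1.94 and 1.81. At day 7 it read 1.90, 1.92, 1.93, 2.17 and 2.38. The highest values at days 1 and 4 belong to the 4 arrays set apart there. At day 14 it read 2.83, 2.83, 3.03, 2.58 and 2.28, and at day 42 3.07, 3.09, 2.82 and 4.09, the last from the fifth such array. Days 7, 1 and 4, with means of 2.06, 2.19 and 2.24, overlap, and so do days 14 and 7 and days 42 and 14.

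Irf8 rose by 1.08 ± 0.32 at day 42 against day 1 (2.11-fold, adjusted p = 0.0138) and by 1.31 without the 5 arrays (adjusted p = 2.66e-05). Leaving out day 42 replicate 4 alone brought the adjusted p to 0.0528, scaling to the array median brought it to 0.0645, and a fit of those 2 ages alone brought it to 0.14. Within slides 1, 2 and 3 the difference was 0.5, 0.85 and 2.49, the last from day 42 replicate 4 against 1 day 1 array. From day 7 to day 14 it was 0.65 ± 0.3 (adjusted p = 0.192), which passed without the 5 arrays (adjusted p = 0.002). From day 14 to day 42 it was 0.56 ± 0.32 with all arrays and 0.28 without the 5, passing in neither (adjusted p = 0.488 and 0.3).

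B cells also transcribe Irf8, and all 7 B cell markers tested were higher at day 42 than at day 1 (6 without the 5 arrays). The list's mean level was -0.63 to 0.38 at day 42 and -2.57 to -1.8 at day 1, and 5 of its 7 genes were well above background on every day 1 array. Blk, a B cell kinase, rose by 2.11 ± 0.53 (adjusted p = 0.00427). Pax5, the transcription factor that sets B cell identity, was not well above background on any day 1 array and was at least 3.08-fold higher at day 42 (adjusted p = 1.06e-05). Their part in the Irf8 result was not tested.

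Batf3 encodes the AP-1 family factor that sustains the cDC1 lineage. It read -0.53, -0.79, -0.80, 0.90 and 0.26 at day 1, and 0.29, -0.51, 0.30, -0.27 and -0.70 at day 4. It read -0.62, -0.73, -0.63, -0.62 and -0.33 at day 7, and -0.83, -0.71, -0.55, -0.65 and -0.10 at day 14. The 4 high values at days 1 and 4 are those of the arrays set apart, and day 14 and day 7 overlap. At day 42 it read 0.16, 0.07, -0.26 and 0.74.

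Batf3 differed by 0.37 ± 0.3 between day 42 and day 1 (adjusted p = 0.417) and did not pass the F-test over the 5 ages (adjusted p = 0.19). Without the 5 arrays it was 0.7 higher at day 42 (1.62-fold, adjusted p = 0.0033), the F-test passed (adjusted p = 0.0167), and the difference between day 42 and day 14 was 0.56 (adjusted p = 0.0236). Its difference between day 14 and day 7 was 0.02 ± 0.29, or 0.02 ± 0.13 without the 5. Within slides the difference between day 42 and day 1 was -0.03, 0.17 and 1.54, the last from day 42 replicate 4 against 1 day 1 array.

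Clec9a, the dead-cell receptor of cDC1, was the only 1 of the 8 genes whose probe was not well above background on every array. It was so on 3, 3, 5, 5 and 4 arrays at days 1, 4, 7, 14 and 42. At day 1 it read -4.75, -4.27, -3.69, -6.59 and -7.10, and at day 4 -6.87, -3.45, -6.73, -3.73 and -3.77. The 4 readings under -6 are those of the arrays set apart, and none of them was well above background. At day 7 it read -3.02, -2.97, -3.19, -3.39 and -3.64, and at day 14 -2.56, -2.57, -2.11, -2.19 and -2.69. At day 42 it read -1.29, -1.15, -1.19 and -4.71, with the fifth array set apart far below the other 3.

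On the other 19 arrays the age means of Clec9a were -4.24, -3.65, -3.24, -2.42 and -1.21 from day 1 to day 42. Neighbouring ages up to day 7 overlapped there, and days 14 and 42 each lay wholly above the age before. With all arrays, day 42 was higher than day 1 by 3.19 ± 0.8 (adjusted p = 0.00401), where 2 of the 5 day 1 readings were not well above background. Without the 5 it was higher by 3.03 ± 0.23 (8.15-fold, adjusted p = 1.39e-07). The difference was 1.5 with the normexp background (adjusted p = 0.000631) and 4.07 without day 42 replicate 4 alone. The difference between day 14 and day 7 was 0.82 in both fits, with an adjusted p of 0.639 with all arrays and 0.00187 without the 5. Between day 42 and day 14 it was 0.34 ± 0.8 with all arrays (adjusted p = 0.845) and 1.21 ± 0.21 without the 5 (2.32-fold, adjusted p = 0.00119). Within slides 1, 2 and 3 the difference between day 42 and day 1 was 4.39, 4.51 and -1.02. The only day 42 array on slide 3 is day 42 replicate 4.

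The wider cDC1 list was mixed. Of 9 genes tested, 4 were higher and 2 lower at day 42 than at day 1 (6 higher and 1 lower without the 5 arrays), with a median of 0.74, or 0.5 with Xcr1 at its lower bound. Wdfy4, which cDC1 need for cross-presentation, rose by 1.46 ± 0.32 (adjusted p = 0.00123), and Naaa, an acid amidase, by 1.11 ± 0.19 (adjusted p = 9.63e-05). Nfil3, a transcription factor needed for cDC1 but also used by the clock and by innate lymphocytes, fell by 1.15 (SE 0.41, adjusted p = 0.0392). Its fall missed the threshold without the 5 arrays (adjusted p = 0.0611). Id2, the other gene called lower, fell by 0.74 (SE 0.22, adjusted p = 0.014), and by 0.77 without the 5 arrays (adjusted p = 0.000756). Xcr1, the chemokine receptor that defines cDC1, was well above background on 3 of 4 arrays at day 42, and on none at days 1, 4 and 7. Its fitted difference did not pass the test (adjusted p = 0.166), but it did without the 5 arrays (adjusted p = 0.00822).

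Cd209a encodes a mouse homologue of the pathogen receptor DC-SIGN and showed the largest difference of the 8 genes. It read -3.98, -4.21, -4.39, -3.89 and -4.43 at day 1, and -2.26, -3.21, -2.46, -2.66 and -2.85 at day 4. It read -2.93, -2.93, -3.19, -3.19 and -2.81 at day 7. Every day 4 array lay above every day 1 array, and days 7 and 4 overlapped. At day 14 it read -0.26, -0.17, -0.06, -0.07 and -1.75, and at day 42 -0.10, 0.19, 0.19 and 0.51. Day 14 stood wholly above day 7, while days 14 and 42 overlapped.

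Cd209a rose by 2.55 ± 0.26 at day 14 against day 7 (5.84-fold, adjusted p = 4.83e-06), and by 2.87 without day 14 replicate 5 and the 5 arrays. It was 20.8-fold higher at day 42 than at day 1 (4.38 ± 0.27, adjusted p = 7.07e-10), or 19.5-fold without the 5 arrays (adjusted p = 1.39e-07). With the normexp background the log2 difference was 3.07 (adjusted p = 9.76e-09). Within slides 1, 2 and 3 that difference was 3.84, 4.51 and 4.89. Between day 42 and day 14 the difference was 0.66 ± 0.27 (adjusted p = 0.238).

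The earlier rise of Cd209a, by 1.49 ± 0.26 at day 4 against day 1 (2.81-fold, adjusted p = 0.0212), was less firm. Without the 5 arrays it was 1.29 (adjusted p = 0.148), and without these and day 14 replicate 5 it was again past the test (adjusted p = 0.00088). With the normexp background it was 0.62 (adjusted p = 0.688), and scaling to the array median, averaging both probes or a fit of those 2 ages alone gave adjusted p-values of 0.0637, 0.287 and 0.322. Leaving out any 1 of day 1 replicates 2, 3 or 5 or day 4 replicates 1, 3 or 4 also ended the call, with adjusted p up to 0.105. A second Cd209a probe was well above background on no array of days 1, 4 and 7, on 4 of 5 at day 14 and on 4 of 4 at day 42. It read at least 2.68-fold higher at day 14 than at day 7 (adjusted p = 5.52e-05) and at least 3.4-fold higher at day 42 than at day 1 (adjusted p = 7.05e-07), with p-values adjusted over all probes. Such a bound divides the mean of the brighter age by the detection limit of the dim arrays, taken as the lowest signal counted as well above background. Only arrays of days 14 and 42 let the second Cd209a probe into the test, so its p-values are not separate support for the rise.

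Cd209d, another mouse CD209 lectin, rose at day 14 with no further rise past the test at day 42. It read -3.20, -3.25, -3.22, -2.19 and -2.63 at day 1, and -1.89, -2.62, -2.14, -2.52 and -2.52 at day 4. At day 7 it read -2.53, -2.54, -2.52, -2.54 and -2.20. These ages overlapped, with the higher readings at days 1 and 4 on the arrays set apart. At day 14 it read -0.95, -0.54, -0.53, -0.41 and -1.13, and at day 42 -0.47, -1.14, -1.33 and -0.56. All of these lay above every earlier array.

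Cd209d rose by 1.75 ± 0.22 at day 14 against day 7 (3.37-fold, adjusted p = 2.68e-05). It was 4.06-fold higher at day 42 than at day 1 (2.02 ± 0.24, adjusted p = 9.72e-07), or 4.73-fold without the 5 arrays. Between day 42 and day 14 it differed by -0.16 ± 0.24 (adjusted p = 0.751). Within slides 1, 2 and 3 that difference was 0.48, -0.76 and 0.27. With array weights it was -0.38 and passed the test as lower (adjusted p = 0.0221).

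**Figure D3:**
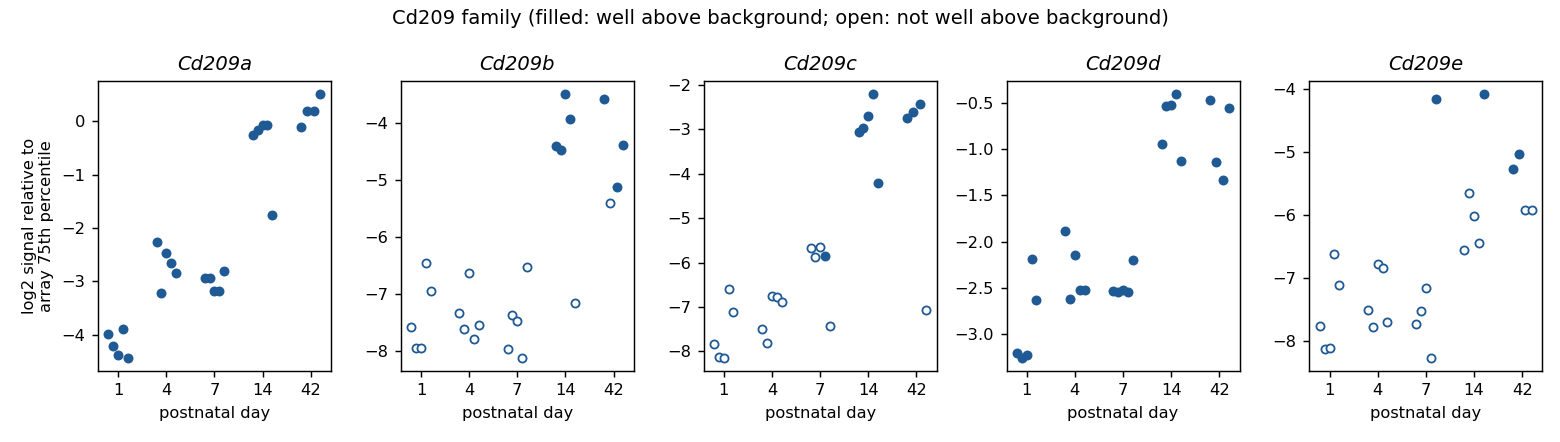
Level of the 5 CD209 family genes on each array (log2 signal relative to the array's 75th percentile, own scale per panel) by postnatal day. Filled points were well above background on their array and open points were not, and within an age points run in the order of replicate numbers. Cd209a and Cd209d are filled at every age, and Cd209b is filled on no array before day 14.

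The other CD209 lectins were at or near background in the first week. Cd209b, the mouse lectin of splenic marginal zone macrophages, was well above background on 0 arrays at days 1, 4 and 7, on 4 of 5 at day 14 and on 3 of 4 at day 42. It was at least 1.9-fold higher at day 14 than at day 7 (adjusted p = 0.000758). Only arrays of days 14 and 42 let Cd209b into the test, so this p-value is not separate support for the rise. Cd209c was well above background on 1 array at day 7, on 5 of 5 at day 14 and on 3 of 4 at day 42. It was at least 3.21-fold higher at day 42 than at day 1 (adjusted p = 0.00015), while a second Cd209c probe was well above background on 1 array only, of day 14. Cd209e passed the test at day 42 against day 1 (adjusted p = 0.0163) but was well above background on only 2 of 4 arrays there. Its signal at day 42 lay under the bound, so no fold is given. The array probes of these related lectins could share sequence, which was not tested.

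Clec10a encodes a galactose-type lectin of cDC2 and macrophages. It read -1.54, -1.51, -1.38, -0.31 and -0.57 at day 1, and 0.32, -0.89, -0.09, -0.35 and -1.02 at day 4. It read -1.11, -1.25, -1.11, -1.63 and -0.71 at day 7. On the arrays set apart it was higher than on the others at days 1 and 4, and the 3 ages overlapped. At day 14 it read -0.09, 0.06, -0.03, -0.06 and 0.03, the narrowest spread of any age, and at day 42 2.32, 0.85, 0.58 and 1.61. Day 42 lay wholly above day 14, and day 14 wholly above day 7.

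Clec10a rose by 1.15 ± 0.31 at day 14 against day 7 (2.21-fold, adjusted p = 0.0166) and by 1.36 ± 0.33 at day 42 against day 14 (2.56-fold, adjusted p = 0.0219). From day 1 to day 42 it rose 5.3-fold (2.41 ± 0.33, adjusted p = 7.52e-06), or 6.64-fold without the 5 arrays. The first of these calls ended without day 7 replicate 4 (adjusted p = 0.0543) and with scaling to the array median (0.122). The second ended without day 42 replicate 1 (adjusted p = 0.101) or 4 (0.0664) and in a fit of those 2 ages alone (0.0743). Within slides 1, 2 and 3 the difference between day 42 and day 14 was 2.41, 0.71 and 1.61.

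Among 13 other cDC2 genes, 7 were higher and 0 lower at day 42 than at day 1 (12 higher without the 5 arrays), with a median of 0.87, or 0.56 with 4 genes at their lower bound. Cd209b, Cd209c and Cd209e are 3 of those 7, although Cd209b was described above as a macrophage lectin. The other 4 are Irf4, Cd207, Clec4a3 and Klf4. Sirpa (0.09 ± 0.3, adjusted p = 0.858) and Mgl2 (0.56 ± 0.42, adjusted p = 0.372), also on the list, did not pass. Without the 5 arrays Mgl2 passed (adjusted p = 0.000839) and Sirpa did not (adjusted p = 0.117). Irf4, the transcription factor on which cDC2 depend, rose by 2.72 ± 0.28 (6.58-fold, adjusted p = 1.23e-07), and was 1.52 ± 0.26 higher at day 14 than at day 7 (adjusted p = 0.000345). Cd207, the lectin langerin, passed the test (adjusted p = 0.000577) and was well above background on 4 of 4 arrays at day 42 and on 1 of 5 at day 1. Cd207 entered the test only through arrays of days 14 and 42, so its p-value is not separate support for a rise. Irf4 is also used by lymphocytes.

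Itgax encodes CD11c, the integrin alpha chain of dendritic cells and alveolar macrophages. It read 1.09, 0.56, 1.38, 2.52 and 2.12 at day 1, and 1.93, 0.89, 1.67, 0.95 and 0.87 at day 4. It read 0.76, 0.54, 0.85, 0.61 and 1.15 at day 7. The highest readings at days 1 and 4 are again those of the arrays set apart. At day 14 it read 1.47, 1.57, 1.65, 1.67 and 1.59, all above day 7, and at day 42 2.29, 2.59, 2.43 and 3.71, all above day 14. On the other 19 arrays the means were 1.01, 0.9, 0.78, 1.59 and 2.44 from day 1 to day 42, and the first 3 ages overlapped.

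Itgax was 1.22 ± 0.33 higher at day 42 than at day 1 (2.34-fold, adjusted p = 0.00796), and 1.43 ± 0.17 higher without the 5 arrays (2.7-fold, adjusted p = 5.98e-06). In a fit of those 2 ages alone the adjusted p was 0.117. Between day 14 and day 7 the difference was 0.81 (adjusted p = 0.111, or 0.000271 without the 5 arrays). Between day 42 and day 14 it was 1.17 ± 0.33 (adjusted p = 0.055), or 0.85 ± 0.16 without the 5 arrays (adjusted p = 0.00201). Within slides 1, 2 and 3 the difference between day 42 and day 1 was 0.49, 1.17 and 2.33. The last is from day 42 replicate 4 against 1 day 1 array.

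Alveolar macrophages also carry CD11c, and 10 of their 13 markers were higher and 0 lower at day 42 than at day 1 (12 higher without the 5 arrays). The mean level of the list was 3.07 to 3.26 at day 42 and 0.87 to 1.49 at day 1, and all 13 genes were well above background on every array of both ages. Chil3, a chitinase-like protein abundant in these macrophages, rose 54.7-fold (5.77 ± 0.36, adjusted p = 7.07e-10). Fabp1, a fatty acid binding protein, rose by 5.29 ± 0.64 (adjusted p = 1.24e-06). Cidec, a lipid droplet protein, rose by 3.66 ± 0.55 (adjusted p = 2.38e-05). Their part in the Itgax result was not tested.

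**Figure D4:**
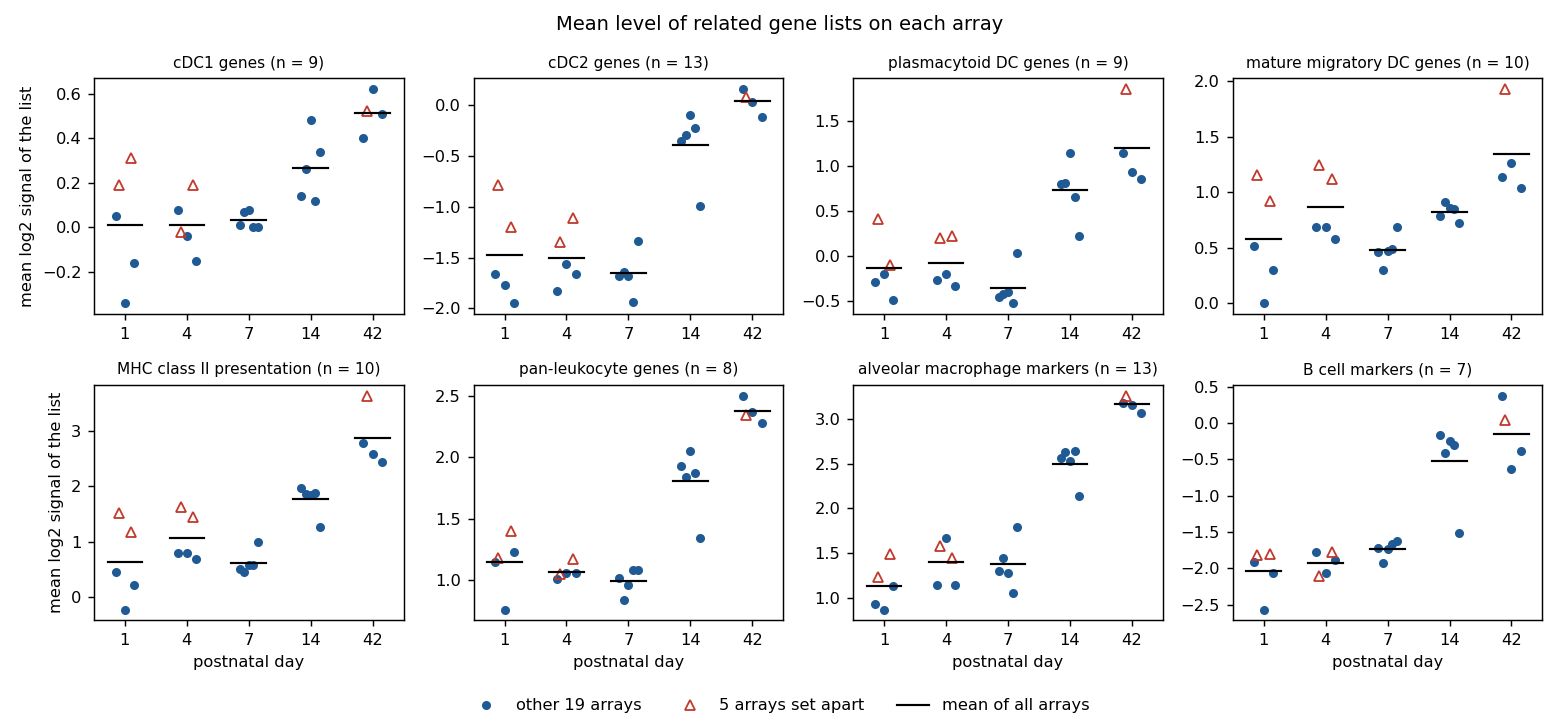
Mean log2 level of 8 gene lists on each array (vertical axis, own scale per panel) by postnatal day, with the number of genes tested in each panel's title. Points are single arrays, open triangles the 5 arrays set apart, and bars the mean of all arrays at an age. The pan-leukocyte mean is 2.28 to 2.5 at day 42 and 0.76 to 1.4 at day 1, and day 14 replicate 5 lies lowest of its age in 7 of the 8 lists.

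The machinery of antigen presentation rose with the dendritic cell genes. All 10 MHC class II presentation genes were higher at day 42 than at day 1 with all arrays and without the 5, with a median of 2.36. H2-Ob (3.88 ± 0.3, adjusted p = 3.95e-09) and H2-Oa (2.59 ± 0.44, adjusted p = 9.4e-05) encode the chains of H2-O, which restrains peptide loading. H2-DMb2 (3.35 ± 0.48, adjusted p = 1.16e-05) encodes a chain of H2-M, which promotes it. At day 14 against day 7, 5 of the 10 were higher, and 10 without the 5 arrays. B cells and macrophages express class II genes too.

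Genes of mature, migrating dendritic cells did not move one way. Of 10 tested, 5 were higher and 2 lower at day 42 than at day 1 (6 and 3 without the 5 arrays). Ccl5, a chemokine also made by T and NK cells, rose by 3.38 ± 0.45 (adjusted p = 4.44e-06), and Ccl17, a chemokine that draws CCR4-bearing T cells, by 2.88 ± 0.37 (adjusted p = 3.15e-06). Fscn1, an actin-bundling protein also found in mesenchymal and endothelial cells, fell by 2.63 (SE 0.4, adjusted p = 2.44e-05). Of 9 plasmacytoid dendritic cell genes, 6 were higher and 0 lower, with and without the 5 arrays. Klk1, a kallikrein, was not well above background at day 1 and was at least 2.85-fold higher at day 42 (adjusted p = 2.86e-06). It too entered the test only through arrays of days 14 and 42. Ccr9, a homing receptor, rose by 2.15 ± 0.43 (adjusted p = 0.000582), and Ly6d, a surface protein also of early B cells, by 1.66 ± 0.47 (adjusted p = 0.0101). Siglech, a defining receptor of plasmacytoid dendritic cells, differed by 0.03 ± 0.14 (adjusted p = 0.892).

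Several markers of other leukocytes were higher over the same ages. Of 8 pan-leukocyte genes 5 were higher at day 42 than at day 1 (8 without the 5 arrays) and 0 lower, with Ptprc, the leukocyte antigen CD45, at 2.16 ± 0.58 (adjusted p = 0.00677). Of 10 T and NK cell markers 8 were higher (10 without the 5 arrays) and 0 lower, among them Gzma, a cytotoxic protease, at 3.5 ± 0.41 (adjusted p = 1.05e-06). Of 10 monocyte and interstitial macrophage markers 3 were higher (8 without the 5 arrays) and 0 lower, with Lyz2, lysozyme, at 1.38 ± 0.29 (adjusted p = 0.000897). Neutrophil and granulocyte precursor markers split, 1 higher and 2 lower of 8 in both fits, and Ngp, a granule protein, fell by 3.28 (SE 0.71, adjusted p = 0.00124).

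Lists of resident and precursor cells had median differences of 0.13 to 0.55 between day 42 and day 1. Of 5 haematopoietic progenitor markers 2 were higher and 1 lower (3 and 1 without the 5 arrays), and Cd34 fell by 0.9 (SE 0.29, adjusted p = 0.0227). Of 6 endothelial markers 1 was higher, Tek, the angiopoietin receptor (1.12 ± 0.21, adjusted p = 0.000353), and 3 were without the 5 arrays. Of 6 lung epithelium markers 2 were higher, Scgb1a1 of club cells (1.3 ± 0.28, adjusted p = 0.00124) and Hopx of alveolar type 1 cells (1.22 ± 0.21, adjusted p = 0.000118), and 4 were without the 5 arrays. The median differences at day 42 against day 1 were 0.13 for endothelial and 0.24 for epithelial markers (0.25 and 0.53 without the 5 arrays), beside 2.21 (2.49) for the 8 dendritic cell genes, 1.14 (1.42) for the pan-leukocyte genes and -0.06 (-0.03) for all genes. With all arrays the median at day 42 against day 1 was 0.74 for cDC1, 0.87 for cDC2 and 0.76 for mature dendritic cell genes. All of these lay below the pan-leukocyte 1.14, while the plasmacytoid median, 1.5, lay above it. With genes at their lower bound, cDC1 and cDC2 had medians of 0.5 and 0.56. The median with all arrays was 2.2 for T and NK cell markers and 2.36 for MHC class II genes. For B cell markers it was 2.04, or 1.82 with Pax5 at its lower bound. The part of the other leukocytes in the dendritic cell results was not tested. From day 1 to day 4 and from day 4 to day 7, 0 of the 133 genes tested in these 15 lists passed the limma test. An unadjusted p under 0.05 was reached by 17 and 12 of them, beside 817 and 1348 of all 15895 genes tested.

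The 8 genes differed in their course over the ages, by a distance that counts the size of a change as well as its shape. After each gene's mean over the 5 ages was removed, the root mean square distance between age means was smallest for Itgax and Irf8 (0.28 on the log2 scale) and for Flt3 and Clec10a (0.32). It was largest for Cd209a and Batf3 (1.59), and the pair of CD209 lectins lay 0.79 apart. By the same measure over 5 ages, the genes nearest to Flt3 among the 15894 others were Gpr183 (0.06), Cxcr6 (0.08) and Ccl19 (0.08). Those nearest to Clec10a were Serpina3f (0.03) and the class II genes H2-Eb1 (0.08) and H2-Aa (0.09). Nearest to Irf8 were Acbd4 (0.03), Vsir (0.04) and Unc45b (0.04), and nearest to Itgax were Slc9a7 (0.02), Fasn (0.03) and Acacb (0.03).

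By the same distance, in which the size of a change counts, the nearest genes to the other 3 lectins lay further away. Nearest to Cd209a were Tff2 (0.18), Bpifb1 (0.32) and Ifit3 (0.33), and Tff2 was again the nearest without the 5 arrays (0.1). Nearest to Cd209d were Lipg (0.11), Spaca3 (0.11) and Hsd11b1 (0.12), and nearest to Clec9a were Amy1 (0.17), Ms4a4b (0.21) and Klrd1 (0.22). Many of these ranks changed without the 5 arrays: Gpr183 fell to rank 124 for Flt3, and Acacb to rank 436 for Itgax. Batf3, which did not pass the F-test, was given no neighbours.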

How the data were processed

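Total RNA of each lung sample was labelled with Cy3 and read on Agilent 1-colour arrays, per the labels' protocols. The files hold 59305 non-control spots for 55681 probes on each array. The processed signal is, per the file headers, an intensity that version 10.7.3.1 of Agilent Feature Extraction corrected for background (10.7.1.1 in the submitters' processing notes). Per the file headers, the scans also give the median intensity of each spot and of its local background, and flags for spots well above background, saturated (0 spots) or not uniform. A table of log2 values for 52095 probes was also deposited by the authors, with columns that follow log2 of the processed signal (r from 0.986 to 1) after a shift of each array (-0.64 to 0.83 by median) by a method not given in the sources used here. Its column medians were 5.66 to 6.26.

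Log2 of the processed signal minus the 75th percentile of the array was used. Controls and spots with the non-uniform flag were removed before averaging the spots of each probe, and 138 probes that then lacked a value on any array were removed too. Of 32335 probes with a RefSeq accession, 26056 matched a symbol in a RefSeq table of GRCm38.p6, which served for names alone, and promoters came from RefSeq in the same build. Each gene was read from the probe with the highest mean and entered the test if 4 or more arrays flagged that probe as well above background. Xcr1, Pax5, Klk1, Cd209b, Cd209c and Cd209e were flagged on no day 1 array and entered through later ages. The same holds for Ncr1, on the T and NK cell list, and Clec4a4, on the cDC2 list. Cd207 was flagged on 1 day 1 array and also entered through later ages. The p-values of all these genes against day 1 are not separate support for a rise, also where list counts include them.

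Ages were compared in 1 limma 3.58.1 fit in R 4.3.3 over all 24 arrays, with 1 mean per age (prior degrees of freedom 2.97), Benjamini-Hochberg adjustment and a threshold of 0.05. Where no array of an age showed a gene well above background, a lower bound of the fold is given, with the lowest signal so flagged on each dim array (or the probe's own, if higher) in place of that age's values. The number of arrays limits the precision. Scripts were tested on simulated data.

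The members, lists, tests and alternatives were chosen with earlier results of these data known. Named genes are all members, the 3 nearest to each member past the F-test, and up to 3 genes per list with the largest differences past the test at day 42 against day 1, of which not all are printed. Xcr1, Id2, Irf4, Clec4a3, Clec4a4, Klf4, Cd209e, Sirpa, Mgl2 and Siglech fall outside that rule and were named after their values were seen. The series title calls the lungs fetal, but every sample is labelled postnatal. For 1 day 14 sample the title (replicate 4) was followed over the source name (replicate 3). Alternatives changed the scaling, normalization, background (normexp, offset 50), filter, probe choice, source of values, slide or replicate block, array weights and samples in the fit.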

Additional observations from a re-analysis of the deposited data

Results flagged for a closer look

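Within each age, the highest and the lowest array of each gene were compared with the nearest other array by Dixon's gap test, in 40 groups of 4 or 5 arrays, and chance marks about 1 group in 20. Of these, 3 groups held an array far from the others. Cd209a at day 14 read -1.75 on replicate 5, against -0.26 to -0.06 on the others. Clec9a at day 42 read -4.71 on replicate 4, against -1.29 to -1.15 on the others, and that array is 1 of the 5 set apart. Cd209d at day 7 read -2.2 on replicate 5, against -2.54 to -2.52 on the others. Without the first of these arrays and the 5 set apart, Cd209a was 2.87 higher at day 14 than at day 7, and 2.55 higher with it. Without the 5 arrays, Clec9a was 1.21 higher at day 42 than at day 14, and 0.34 higher with them.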

How the results depend on the processing

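No difference of any member changed sign in a called result under any alternative run. The counts of members past the test were 1, 0, 4, 2 and 7 of 8 for day 4 minus day 1, day 7 minus day 4, day 14 minus day 7, day 42 minus day 14 and day 42 minus day 1, and the slide block, the replicate block and quantile normalization left each of these member counts within 1.5 times. For day 4 minus day 1 the count was 0 with median scaling, normexp, the mean of a gene's probes, the compared ages alone and without the 5 arrays, 2 with the authors' table and without the 6 arrays (the 5 and day 14 replicate 5), and 3 with array weights. For day 7 minus day 4 it was 1 with array weights. For day 14 minus day 7 it was 7 with the compared ages alone, array weights, and without the 5 or the 6 arrays. For day 42 minus day 14 it was 4 with the authors' table, 1 with the mean of probes, 0 with the compared ages alone, 7 with array weights (Cd209d as lower) and 5 without the 5 or the 6 arrays. Leaving out each array in turn gave 0 to 1, 0 to 0, 3 to 4, 1 to 3 and 6 to 7 members in the same order, with 1 for day 42 minus day 14 without day 42 replicate 1 or 4. A filter on all 24 arrays left Clec9a untested. Over all genes the counts past the test were 10, 1, 1840, 587 and 4251, without the 5 arrays 13, 8, 6125, 2154 and 7408, and without the 6 arrays 260, 26, 7103, 2261 and 7702. Quantile normalization gave 32, 6, 2856 and 973 for the first 4, and for the first 2 normexp gave 2 and 3 and the mean of probes 5 and 0, while median scaling gave 4 for the first. With the compared ages alone they were 0, 0, 4932, 206 and 2175, and with array weights 471, 4550, 9608, 4957 and 8268. The authors' table gave 99, 20, 3561 and 1525 for the first 4, and leaving out 1 array gave 4 to 49, 1 to 13, 1347 to 2371, 359 to 871 and 3495 to 5850. The cause was not tested. Of 46 pairs of arrays with the same replicate number at different ages, the correlation of deviations from the age mean had a median of -0.01 (-0.85 to 0.88), and 4 of 24 arrays correlated best with their own number, so the numbers were not taken as pairs. With the replicate block the member counts were again 1, 0, 4, 2 and 7. Signal over background limits Clec9a, Cd209b, Cd209c and Cd209e in the first week.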
